A study of Mus musculus with 8 samples.

Results

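The Wnt pathway was followed through the genes for its ligands, their secretion, the secreted inhibitors, the receptors, the cytoplasmic transducers, the destruction complex, and the nuclear factors. Members were chosen by gene symbol and not by their values, and 77 of the 18193 genes represented by a single-gene probe set matched. Wnt proteins are lipid-modified ligands that bind Frizzled receptors together with the coreceptors Lrp5 and Lrp6. Without a ligand, a complex of Axin, Apc, Gsk3 and casein kinase 1 marks β-catenin for destruction; with one, β-catenin accumulates and acts with TCF/LEF factors in the nucleus. In the intestine this signal is known to be strongest at the base of the crypt, where it maintains stem cells, and several of its target genes encode inhibitors of the pathway itself.

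The arrays were Affymetrix expression arrays of epithelial cells from C57BL/6 mice, freed from the intestine with EDTA, Dispase and DNase I and labelled as crypt cells. One sort used an antibody against EphB2, a receptor tyrosine kinase whose level is known to fall from the crypt base upwards, and gave the groups EphB2 High, EphB2 Medium and EphB2 Low with 2 arrays each. The other used mice with the Lgr5-EGFP knock-in allele, in which a fluorescent protein is read from the locus of a stem cell receptor, and gave Lgr5 High and Lgr5 Low with 1 array each. No further allele or agent, age, sex or part of the intestine is given in the labels used here, nor is it stated there that the replicates of a group are different animals rather than one pool. P-values therefore describe the spread among these arrays, part of which may be technical. Values are log2 levels after RMA, and differences are on the log2 scale with the standard error from limma (n = 2 arrays per group) unless stated otherwise. In sorted bulk samples, fewer cells of a type and less RNA per cell cannot be told apart. The Lgr5 arrays were hybridized apart from the EphB2 arrays. Where levels of both are set side by side below, hybridization and sort cannot be told apart.

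The groups followed their labels. Of 12 measured stem cell markers 12 rose between EphB2 Low and EphB2 High, as did 13 of 13 mitosis genes, and 14 of 14 enterocyte genes fell. Markers of other cells are given by count, beside 22.0% of all genes that rose and 15.3% that fell. Of 14 Paneth cell genes 8 rose and 2 fell between the same groups. Their summed level, on the log2 scale, was 16.53 to 16.58 in EphB2 High, 16.35 to 16.53 in EphB2 Medium and 16.21 to 16.26 in EphB2 Low, and 16.43 in Lgr5 High against 16.99 in Lgr5 Low. Of 8 tuft cell genes 5 rose and 1 fell, with summed levels of 10.69 to 11.19, 8.76 to 9.76 and 8.94 to 9.30 in EphB2 High, Medium and Low, and 9.73 in Lgr5 High against 10.89 in Lgr5 Low. Of 11 enteroendocrine genes 1 rose and 5 fell, and 10 were lower in Lgr5 High by at least 2-fold; of 10 goblet cell genes 4 rose and 4 fell, and 8 were lower in Lgr5 High. Of 12 lymphocyte genes 1 rose and 3 fell, of 11 myeloid genes 2 rose and 1 fell, and of 7 endothelial genes 2 rose and 1 fell. These small counts were not tested against the shares of all genes and do not show that such cells changed. Of 13 fibroblast and smooth muscle genes, 12 of them at or below the 40th percentile of all genes, limma called 0. The part of these cells in the results below was not tested.

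Promoter sequence is shown for 5 genes that carry the results below: Sfrp5, Axin2 and Wnt3, which rose in EphB2 High, Gsk3a, which fell, and Wnt5b, whose window holds a TCF/LEF word. The windows are the 250 bases before a start site, from RefSeq on GRCm38.p6, written 5′ to 3′ on the strand of the gene. Their positions are chr19:42202253-42202502 (minus strand) for Sfrp5, chr11:108920099-108920348 (plus strand) for Axin2 and chr11:103773925-103774174 (plus strand) for Wnt3. The Wnt5b window lies at chr6:119449387-119449636 (minus strand), and the Gsk3a window at chr7:25237852-25238101 (minus strand). Capitals mark CTTTGAT or CTTTGAA, 2 forms of the word that TCF/LEF factors are known to bind, on either strand.
Sfrp5: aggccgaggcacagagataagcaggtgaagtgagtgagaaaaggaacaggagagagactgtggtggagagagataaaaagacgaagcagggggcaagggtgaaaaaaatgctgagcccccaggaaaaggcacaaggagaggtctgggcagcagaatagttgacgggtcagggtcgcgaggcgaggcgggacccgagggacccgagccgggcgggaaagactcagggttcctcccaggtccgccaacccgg
Axin2: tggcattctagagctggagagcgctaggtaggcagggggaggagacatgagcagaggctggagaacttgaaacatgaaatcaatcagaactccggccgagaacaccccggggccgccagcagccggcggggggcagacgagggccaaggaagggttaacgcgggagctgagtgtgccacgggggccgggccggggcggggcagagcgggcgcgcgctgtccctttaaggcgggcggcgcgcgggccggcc
Wnt3: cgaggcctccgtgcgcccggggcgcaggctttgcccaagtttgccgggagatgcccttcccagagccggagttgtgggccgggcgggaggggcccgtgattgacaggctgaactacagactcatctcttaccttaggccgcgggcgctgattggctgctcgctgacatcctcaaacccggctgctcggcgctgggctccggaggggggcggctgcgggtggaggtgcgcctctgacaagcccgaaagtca
Wnt5b: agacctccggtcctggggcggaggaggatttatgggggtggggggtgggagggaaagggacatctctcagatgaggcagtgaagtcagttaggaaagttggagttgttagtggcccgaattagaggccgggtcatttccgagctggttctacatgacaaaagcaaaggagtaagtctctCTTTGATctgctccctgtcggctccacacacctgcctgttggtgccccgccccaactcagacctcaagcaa
Gsk3a: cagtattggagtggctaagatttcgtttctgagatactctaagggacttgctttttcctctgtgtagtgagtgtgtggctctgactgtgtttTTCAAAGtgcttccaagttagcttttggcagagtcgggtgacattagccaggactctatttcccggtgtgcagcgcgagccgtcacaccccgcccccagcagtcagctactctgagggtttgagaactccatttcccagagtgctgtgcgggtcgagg
The windows of Sfrp5, Axin2 and Wnt3 hold neither word. In the Wnt5b window, which belongs to 1 of several start sites of that gene, CTTTGAT begins 71 bases before the start site. The Gsk3a window holds CTTTGAA on the opposite strand, its first printed base lying 158 bases before the start site.

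Promoter windows were found for 51 of the 77 genes, and 4 of their 70 windows (5.71%) held either word, against 7.48% of all 32851 windows. The other 2 genes were Wnt11 and Dkk1, neither of them called between EphB2 High and EphB2 Low. A match describes letters only, and a window without one says nothing of TCF/LEF binding.

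Between EphB2 High and EphB2 Low, the comparison that asks what marks the crypt base, 21 of the 77 genes changed: 16 were higher in EphB2 High and 5 lower. That is 27.3% of the pathway (20.8% higher, 6.49% lower), against a background of 37.3% of all genes (22.0% higher, 15.3% lower). The share of genes that changed was thus not above that of the array. Of the 77 genes, 37 lay at or below the 40th percentile of all genes. Among the 40 above it 12 rose and 3 fell (37.5%), and no background was computed at that level. The median difference was 0.06 over the pathway and 0.01 over all genes. By role, 5 of 12 receptors rose and 1 fell, 3 of 12 secreted or surface inhibitors and both genes of ligand secretion rose, and of 19 Wnt genes 2 rose and 2 fell. Of 12 genes of the destruction complex or the casein kinase 1 family, grouped by symbol, 2 rose and 1 fell. The roles were not tested against each other. Limma called 0 of 3 Dishevelled genes; Dvl2 had an unadjusted p of 0.0331 and was called with the replicate number, which marks a shared hybridization, as a block. That block gave 28 calls over the pathway in place of 21. The arrays of EphB2 High and EphB2 Low did not overlap for 45 of the 77 genes, against 68.0% of all genes. In each of the 21 genes that changed, EphB2 Medium lay between the other groups on the mean. No share over all genes is given for this order.

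**Figure D1:**
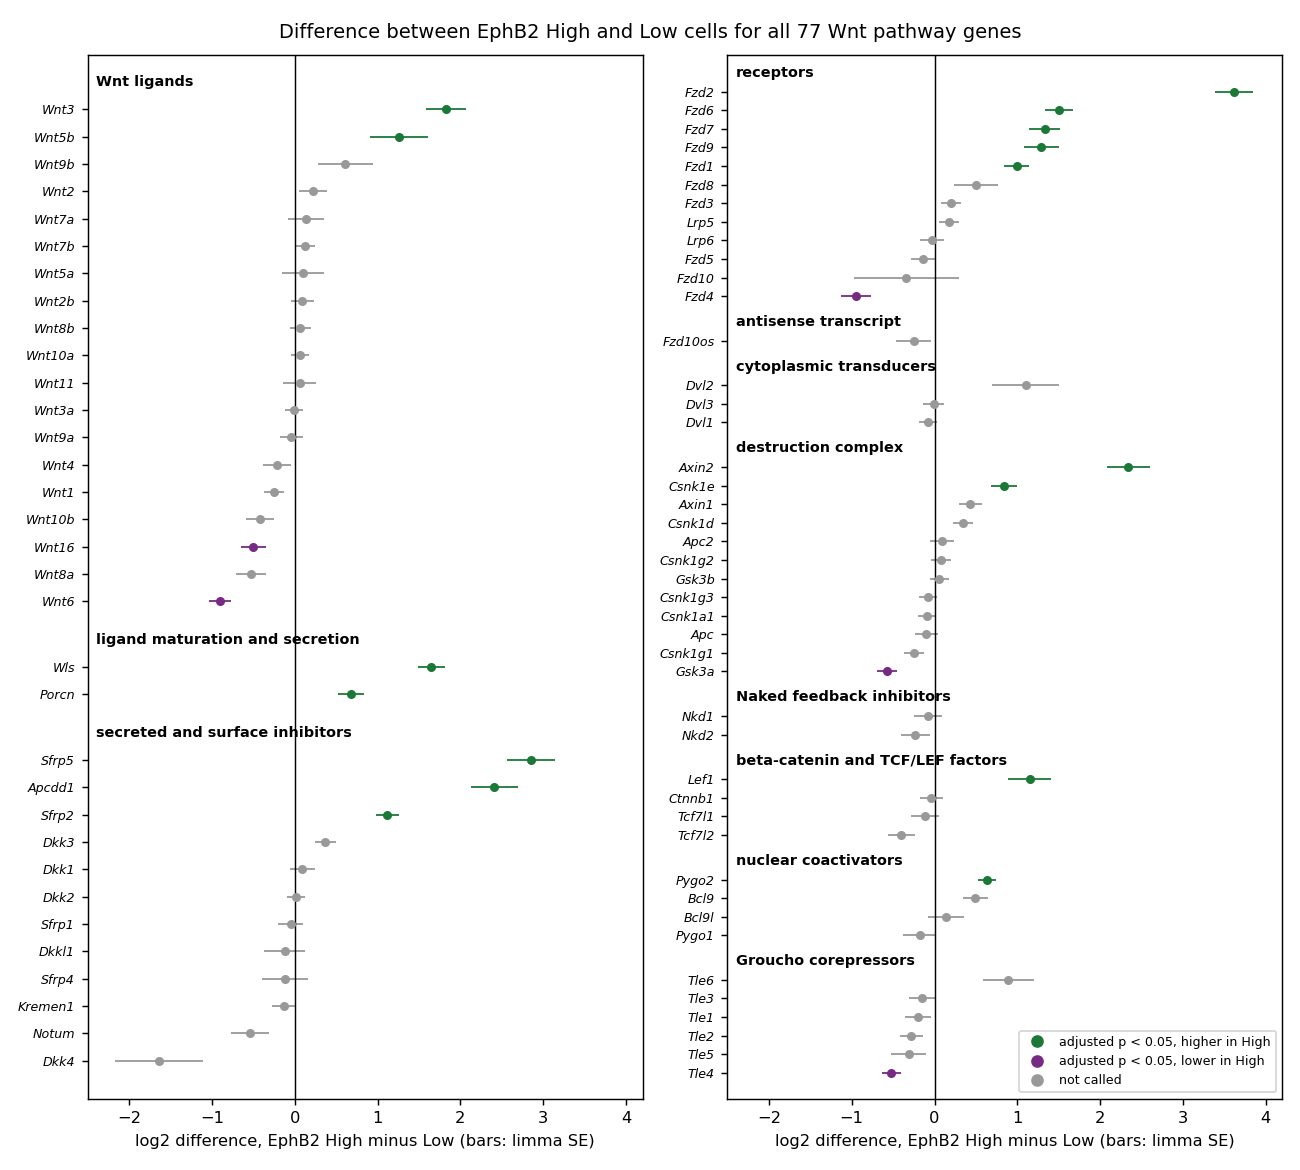
Log2 difference between EphB2 High and EphB2 Low (x axis) for each of the 77 genes, grouped by role (y axis); bars are limma standard errors, and genes past an adjusted p of 0.05 are green (higher) or purple (lower), the others grey, in the fit without the replicate block. Fzd2 lies farthest right at 3.61 among the receptors, whereas the 3 Dishevelled genes are grey (Dvl2 is called with the block).

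The Wnt ligands were dim in these epithelial cells. All 19 Wnt genes had a mean over the EphB2 arrays at or below the 40th percentile of all genes, a level of 6.14. Wnt3, a ligand that Paneth cells are known to supply, measured 6.33 and 6.71 in EphB2 High, 5.67 and 5.85 in EphB2 Medium, 5.0 and 4.38 in EphB2 Low, 5.92 in Lgr5 High and 6.32 in Lgr5 Low. Its EphB2 arrays fell into 3 levels without overlap, while Lgr5 Low lay above Lgr5 High. Between EphB2 High and Low the rise was 1.83 ± 0.24 (3.55-fold; limma adjusted p = 0.0028), and between Lgr5 High and Low the difference was -0.40. The summed Paneth, tuft and myeloid markers all ran in the same orders, with EphB2 High above EphB2 Low and Lgr5 Low above Lgr5 High. For the myeloid list this held for the sum only in the EphB2 sort, and 9 of its 11 genes lay at or below the 40th percentile. The median level of the myeloid genes was at most 4.34 on the EphB2 High arrays and at least 4.46 on the EphB2 Low arrays. In the Lgr5 sort that median was 4.37 in High and 4.52 in Low. Lyz2 made up most of the myeloid sum. It was at 10.31 and 10.35 in EphB2 High (sum 10.74 to 10.81) and 12.27 in Lgr5 Low (sum 12.4). Of 10 goblet cell genes, the 4 that rose (Spdef, Atoh1, Ccl9 and Retnlb) were also lower in Lgr5 High, while 4 others fell. The part of any of these cells in the Wnt3 values was not tested.

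Wnt5b, a ligand known mainly for signalling without β-catenin, measured 6.65 and 7.0 in EphB2 High, 5.15 and 6.01 in EphB2 Medium and 5.23 and 5.91 in EphB2 Low. Only the EphB2 High arrays stood apart; those of EphB2 Medium and Low covered nearly the same range. It rose by 1.26 ± 0.35 (2.39-fold; adjusted p = 0.0366), of which 98.9% lay between EphB2 High and Medium. The Lgr5 arrays were at 7.16 in High and 6.18 in Low, a difference of 0.98. The EphB2 call did not survive the removal of High replicate 1 (limma adjusted p = 0.0818), High replicate 2 (0.164) or Low replicate 1 (0.149).

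Wnt6 ran the other way, with 5.36 and 5.56 in EphB2 High, 5.97 and 5.92 in EphB2 Medium and 6.30 and 6.42 in EphB2 Low. The 3 groups did not overlap, and it fell by 0.90 (SE 0.13; limma adjusted p = 0.00328). Its Lgr5 difference was -0.31. Wnt16 was at 3.08 and 3.21 in EphB2 High against 3.49 and 3.79 in EphB2 Low and fell by 0.50 (SE 0.15; adjusted p = 0.0455). That call at the lower end of the scale was lost in 8 of the 11 alternatives run for it. It was lost with any EphB2 array but Low replicate 1 left out. Quantile normalization (limma adjusted p = 0.0512), only the compared groups (0.0736) and a variance prior with a trend (0.0501) ended it too. The other 15 Wnt genes did not pass, with differences between -0.53 (Wnt8a, adjusted p = 0.0681; 0.0425 with only the compared groups or with either Medium array left out) and 0.61 (Wnt9b). Among them were Wnt2b at 0.09 ± 0.14 and Wnt5a at 0.10 ± 0.25, ligands known from the mesenchyme around the crypt, and Wnt3a at -0.01 ± 0.11.

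Both genes of ligand secretion rose. Wls, the carrier that brings Wnt proteins to the cell surface, measured 10.13 and 10.35 in EphB2 High, 9.75 and 10.11 in EphB2 Medium and 8.62 and 8.57 in EphB2 Low. The EphB2 Low arrays lay more than 1 unit below every other array, while EphB2 High and Medium lay close together. The rise was 1.65 ± 0.16 (3.13-fold; limma adjusted p = 0.00124), and EphB2 Medium already exceeded Low by 1.34 (adjusted p = 0.00595). The Lgr5 arrays, at 10.38 and 10.04, differed by 0.34. Porcn, the acyltransferase that attaches the lipid, was at 7.08 and 7.08 in EphB2 High, 6.94 and 7.03 in EphB2 Medium and 6.60 and 6.2 in EphB2 Low. It rose by 0.68 ± 0.16 (adjusted p = 0.0195), a call that ended when High replicate 1 (0.0824), High replicate 2 (0.0885) or Low replicate 2 (0.0549) was left out.

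Secreted and surface inhibitors were split between 3 that rose and 9 that did not pass. Sfrp5, a secreted protein that binds Wnt ligands, measured 9.47 and 9.84 in EphB2 High, 8.71 and 8.68 in EphB2 Medium, and 7.22 and 6.39 in EphB2 Low. Lgr5 High stood at 9.79 and Lgr5 Low at 8.52. The EphB2 groups formed 3 separate levels, with Lgr5 High at the level of EphB2 High and Lgr5 Low near EphB2 Medium. Sfrp5 rose by 2.85 ± 0.29 between EphB2 Low and High (7.21-fold; limma adjusted p = 0.00128) and by 1.89 between EphB2 Low and Medium (adjusted p = 0.00928).

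Apcdd1, a membrane protein that inhibits Wnt signalling at the receptor, measured 7.43 and 8.09 in EphB2 High, 5.98 and 6.53 in EphB2 Medium and 5.24 and 5.46 in EphB2 Low. Lgr5 High, at 8.42, was the highest of the 8 arrays, and Lgr5 Low was at 6.77. Apcdd1 rose by 2.41 ± 0.28 (5.31-fold; adjusted p = 0.00189). Unlike most of the genes that rose, it had the larger step between EphB2 Medium and High, 1.5 (adjusted p = 0.0829; 0.0331 with the replicate number as a block), against 0.90 between Low and Medium (adjusted p = 0.0667; 0.0164 with the block).

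Sfrp2, of the same family as Sfrp5, was dim throughout, at 4.54 and 4.60 in EphB2 High, 4.21 and 3.90 in EphB2 Medium and 3.47 and 3.42 in EphB2 Low. It rose by 1.12 ± 0.14 (2.18-fold; limma adjusted p = 0.00228). Both Lgr5 arrays, at 3.37 and 3.38, lay at the level of EphB2 Low. The remaining Sfrp genes differed by -0.05 ± 0.15 (Sfrp1) and -0.12 ± 0.28 (Sfrp4), neither of them called.

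None of the Dickkopf genes, which block the coreceptors, passed the test. Dkk4 had the largest difference among them, with 4.28 and 4.86 in EphB2 High, 5.26 and 4.96 in EphB2 Medium and 5.39 and 7.03 in EphB2 Low. The second EphB2 Low array stood apart from the other EphB2 arrays, and the difference of -1.64 ± 0.53 had an adjusted p of 0.0571 (0.0482 with the block, 0.0322 with a variance prior with a trend). Without Low replicate 1 it was at -2.46 and called (0.00456). Dkk3 was at 0.37 ± 0.13 (adjusted p = 0.0685; 0.037 with the block). Notum, a secreted enzyme that removes the lipid from Wnt proteins, measured 4.73 to 4.82 in EphB2 High and 4.99 to 5.64 in EphB2 Low and did not pass (-0.54 ± 0.23, adjusted p = 0.119). Without Low replicate 1 (4.99), only Low replicate 2 (5.64) was left in that group, and the Notum difference was -0.86. Kremen1, a Dickkopf receptor, differed by -0.13 ± 0.14.

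**Figure D2:**
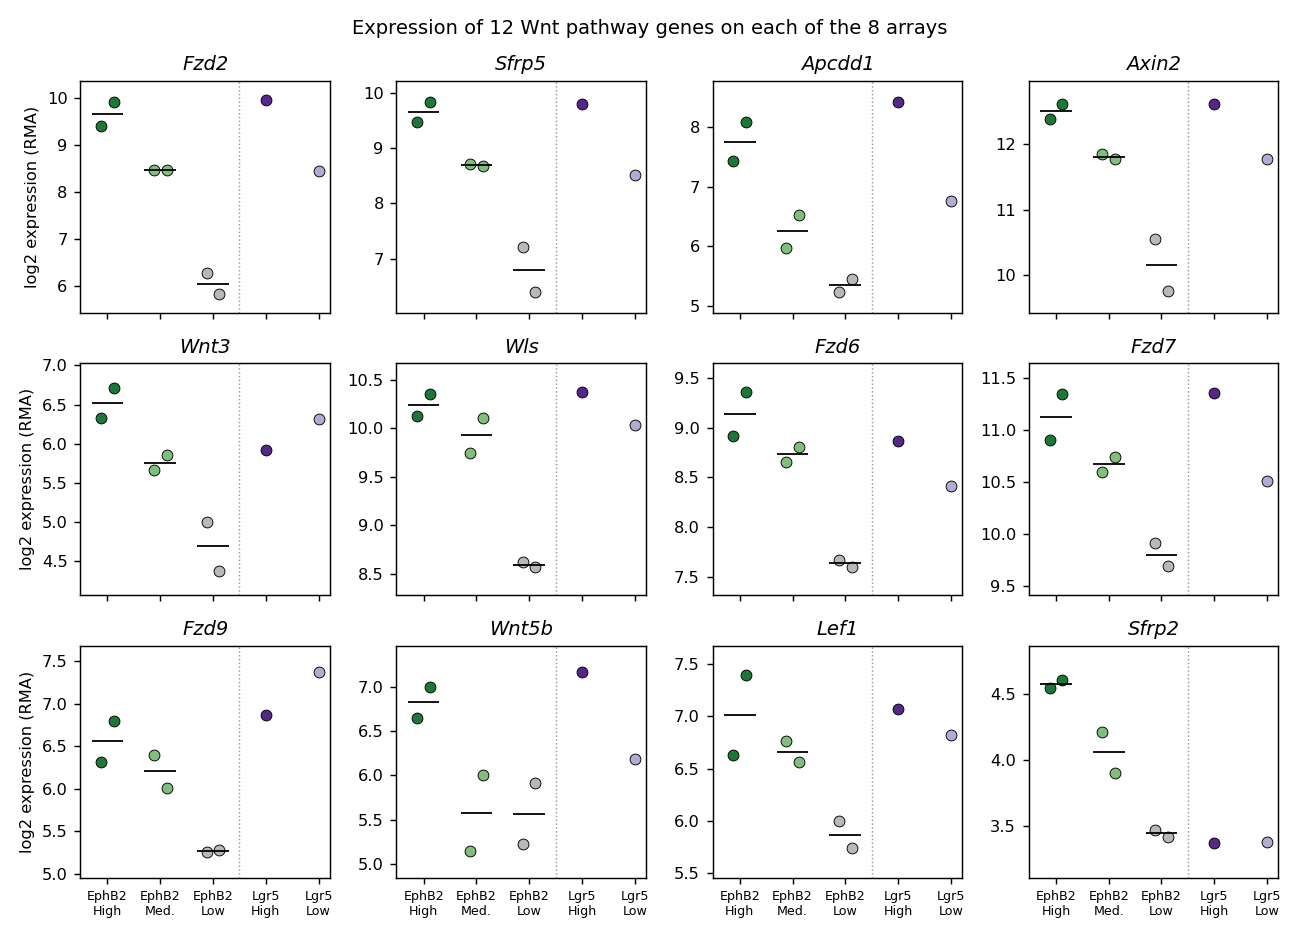
RMA log2 level (y axis, its own scale in each panel) of 12 called genes on each of the 8 arrays, grouped as EphB2 High, Medium and Low and Lgr5 High and Low (x axis); each point is 1 array and each bar a mean of 2. Fzd2, Sfrp5 and Axin2 step down from EphB2 High to Low, and Wnt3 lies higher in Lgr5 Low (6.32) than in Lgr5 High (5.92).

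The Frizzled receptors held the largest change of the pathway. Fzd2 measured 9.39 and 9.91 in EphB2 High, 8.47 and 8.46 in EphB2 Medium and 6.26 and 5.82 in EphB2 Low, with 9.95 in Lgr5 High and 8.44 in Lgr5 Low. The 3 EphB2 groups were far apart, and the Lgr5 arrays lay near the levels of EphB2 High and Medium. The rise was 3.61 ± 0.23 between EphB2 Low and High (12.2-fold; limma adjusted p = 0.00035), with 2.42 of it between EphB2 Low and Medium (adjusted p = 0.00326). From EphB2 Medium to High the difference was 1.19 (adjusted p = 0.0885). Its dimmer probe sets rose by 1.33 and 1.53, and the mean over probe sets by 2.16, so the size of the change depends on the probe set.

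Fzd6, Fzd7, Fzd9 and Fzd1 rose as well. Fzd7, a receptor known from Lgr5 stem cells, measured 10.90 and 11.35 in EphB2 High, 10.60 and 10.74 in EphB2 Medium and 9.91 and 9.69 in EphB2 Low, and rose by 1.33 ± 0.19 (2.51-fold; limma adjusted p = 0.00336). Fzd6 was at 8.92 and 9.36, 8.66 and 8.81, and 7.67 and 7.60 in EphB2 High, Medium and Low, and rose by 1.5 ± 0.17 (2.83-fold; adjusted p = 0.00181). In both genes the EphB2 Low arrays lay clearly below the rest, and EphB2 Medium lay nearer to EphB2 High. Fzd1 was at 9.51 and 9.83, 9.30 and 9.38, and 8.62 and 8.76, and rose by 0.99 ± 0.15 (1.98-fold; adjusted p = 0.00413). With the mean over probe sets the rises shrank to 0.69 for Fzd7, 0.83 for Fzd6 and 0.57 for Fzd1, all still called. The dimmest probe sets of these genes were level, at 0.05 ± 0.14, 0.03 ± 0.15 and 0.15 ± 0.13. Between Lgr5 High and Low, Fzd7 differed by 0.86, Fzd1 by 0.76 and Fzd6 by 0.46.

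Fzd9 measured 6.32 and 6.80 in EphB2 High, 6.40 and 6.01 in EphB2 Medium, 5.26 and 5.28 in EphB2 Low, 6.87 in Lgr5 High and 7.38 in Lgr5 Low. It rose by 1.29 ± 0.21 between EphB2 Low and High (2.44-fold; adjusted p = 0.00535), yet Lgr5 Low was the highest of the 8 arrays. Fzd4 was the receptor that fell, with 8.07 and 8.33 in EphB2 High, 8.71 and 8.38 in EphB2 Medium and 9.30 and 9.01 in EphB2 Low (-0.95 ± 0.18, limma adjusted p = 0.00947). Its groups kept their order without overlap, and the Lgr5 difference, -0.66, had the same sign. Leaving out High replicate 1 ended the call (adjusted p = 0.056).

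Fzd5, a receptor known from Paneth cells and crypts, ranged from 12.25 to 12.89 over the 8 arrays and did not pass (-0.14 ± 0.14). The coreceptors did not pass either. Lrp6 differed by -0.03 ± 0.14 and Lrp5 by 0.18 ± 0.12 between EphB2 High and Low. Fzd3, Fzd8 and Fzd10 were at 0.20 ± 0.12, 0.50 ± 0.27 and -0.34 ± 0.63, none of them called.

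The Dishevelled genes, which carry the signal from receptor to destruction complex, gave no call in limma. Dvl1 and Dvl3 differed by -0.08 ± 0.11 and -0.01 ± 0.13. Dvl2 was at 7.17 and 8.17 in EphB2 High, 6.68 and 7.40 in EphB2 Medium and 6.35 and 6.78 in EphB2 Low. In each group its second replicate lay above the first. Its difference of 1.10 ± 0.40 had an adjusted p of 0.0786, and 0.00794 with the block. Without High replicate 1 it was at 1.61 and called (0.0329).

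The destruction complex genes were grouped by symbol with all casein kinase 1 genes, and 2 of these 12 rose and 1 fell. Axin2, a scaffold of the complex and a well-known target of β-catenin, measured 12.39 and 12.61 in EphB2 High, 11.85 and 11.77 in EphB2 Medium, 10.55 and 9.77 in EphB2 Low, 12.62 in Lgr5 High and 11.77 in Lgr5 Low. The EphB2 groups formed 3 levels, and the Lgr5 arrays sat at those of EphB2 High and Medium. Axin2 rose by 2.34 ± 0.26 (5.06-fold; limma adjusted p = 0.00169), and by 1.65 between EphB2 Low and Medium (adjusted p = 0.0102). Its relative Axin1 was at 0.43 ± 0.14 and did not pass (limma adjusted p = 0.0574; 0.0409 with the block). A dimmer Axin1 probe set was higher by 0.81 ± 0.13, with a limma adjusted p of 0.00642 over all probe sets.

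Csnk1e, a casein kinase 1, measured 7.07 and 7.01 in EphB2 High, 6.53 and 6.94 in EphB2 Medium and 6.22 and 6.18 in EphB2 Low, and rose by 0.84 ± 0.16 (1.79-fold; adjusted p = 0.00956; 0.053 without EphB2 High replicate 1). The other 5 casein kinase genes did not pass, with differences from -0.25 (Csnk1g1) to 0.34 (Csnk1d, adjusted p = 0.0468 with the block). Gsk3a, a kinase of the complex, was at 9.37 and 9.26 in EphB2 High, 9.51 and 9.36 in EphB2 Medium and 9.86 and 9.91 in EphB2 Low. Its EphB2 Low arrays lay above all others, and it fell by 0.57 (SE 0.12; limma adjusted p = 0.0129). That call ended when High replicate 2 (0.0819) or Low replicate 2 (0.0535) was left out.

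Gsk3b, the second kinase of that kind, gave a different answer with the probe set. The brightest was level, from 12.62 to 12.82 over the 8 arrays (0.06 ± 0.11, adjusted p = 0.724). A dimmer one was lower in EphB2 High (-1.39 ± 0.18, adjusted p = 0.00309), and the mean over its probe sets was at -0.50 (adjusted p = 0.0354). Apc, the scaffold lost in many colorectal tumours, ranged from 9.89 to 10.57 and did not pass (-0.10 ± 0.14).

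The Naked genes, cytoplasmic feedback inhibitors that bind Dishevelled, did not pass: Nkd1 differed by -0.08 ± 0.17 and Nkd2 by -0.23 ± 0.18. Ctnnb1, which encodes β-catenin, was among the most level genes of the pathway, between 13.35 and 13.59 on all 8 arrays (-0.04 ± 0.14, limma adjusted p = 0.844). RNA levels say nothing of how much β-catenin protein was present.

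Among the TCF/LEF factors, Lef1 measured 6.63 and 7.39 in EphB2 High, 6.76 and 6.56 in EphB2 Medium and 6.00 and 5.74 in EphB2 Low. The EphB2 Medium arrays lay within or near the range of EphB2 High, and Lef1 rose by 1.15 ± 0.26 between EphB2 Low and High (2.21-fold; limma adjusted p = 0.0185). Leaving out High replicate 2 (0.76, adjusted p = 0.05) or Low replicate 2 (0.0949) ended the call, and the mean over probe sets gave 0.61 (0.0318). Tcf7l2, the main TCF factor of the intestinal epithelium, was at 10.88 and 10.79 in EphB2 High and 11.38 and 11.10 in EphB2 Low and did not pass (-0.40 ± 0.16, adjusted p = 0.0967). It passed with the block (0.0383), and a dimmer probe set differed by -1.24 ± 0.29 (adjusted p = 0.0215). Tcf7l1 differed by -0.11 ± 0.17.

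Of 4 nuclear coactivators, Pygo2, which reads histone marks and joins β-catenin through Bcl9, rose. It measured 12.05 and 12.14 in EphB2 High, 11.91 and 11.94 in EphB2 Medium and 11.46 and 11.47 in EphB2 Low. The groups did not overlap, and the rise was 0.63 ± 0.11 (1.55-fold; limma adjusted p = 0.00646). The Lgr5 arrays, at 11.85 and 11.87, differed by -0.02. Bcl9 was at 0.49 ± 0.15 and did not pass (adjusted p = 0.0504). It passed with the filter at the 40th percentile (0.0284), with a variance prior with a trend (0.0399) and without Low replicate 1 (0.028), while a dimmer Bcl9 probe set had the opposite sign (-0.67).

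Of 6 genes of the Groucho family, which includes corepressors of TCF targets, Tle4 fell. It was at 11.61 and 11.55 in EphB2 High, 12.02 and 11.95 in EphB2 Medium, and 12.10 on both EphB2 Low arrays. EphB2 High stood apart from the other groups, and 77.7% of the difference of -0.52 ± 0.11 lay between EphB2 High and Medium (limma adjusted p = 0.0128 for High against Low). Leaving out either EphB2 High array ended the call (0.0539 and 0.0794). Its dimmer probe sets differed by -2.16 and -0.76, and the mean over probe sets by -1.14. Tle6 did not pass (0.89 ± 0.31, adjusted p = 0.0739; 0.0388 with the block), and its second EphB2 Low array, at 5.40, was its lowest. Without Low replicate 1 it was at 1.38 and called (0.00449). Tle1, Tle2, Tle3 and Tle5 lay between -0.31 and -0.15. Fzd10os, an antisense transcript that the symbol rule also took, differed by -0.25 ± 0.21.

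The comparison of EphB2 Medium with EphB2 Low, which shares the EphB2 Low arrays with the one above, called 13 of the 77 genes, 12 higher and 1 lower. The background was 24.7% of all genes (14.6% higher, 10.1% lower). All 13 were among the 21 called between EphB2 High and Low. The 12 that rose were Fzd2, Sfrp5, Axin2, Wls, Fzd6, Wnt3, Fzd9, Fzd7, Fzd1, Sfrp2, Porcn and Pygo2, and Gsk3a fell by 0.45 (limma adjusted p = 0.0426). The count changed with single arrays left out, which also leaves fewer degrees of freedom. Leaving out Medium replicate 1 gave 4 calls, Medium replicate 2 gave 2 (Fzd2 and Wls) and Low replicate 2 gave 5. Without Medium replicate 1 and 2 in turn, Axin2 was at 1.61 and 1.69 (1.65 in all arrays) and Sfrp5 at 1.87 and 1.9, so these calls were lost (adjusted p of 0.0502 to 0.0579) at nearly the same difference.

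Between EphB2 High and EphB2 Medium limma called 0 of 77 genes, against a background of 1.36% of all genes (0.214% higher, 1.15% lower), and 10 had an unadjusted p below 0.05. The count was 1 with the block, which called Apcdd1, and 2 with a variance prior that follows the level, which called Apcdd1 and Tle4. In 14 of the 16 genes that rose between EphB2 Low and High, the difference from EphB2 Low to Medium was larger than that from Medium to High. The exceptions were Apcdd1 and Wnt5b. Over all genes the median absolute difference was likewise larger for EphB2 Medium against Low (0.27) than for High against Medium (0.16). The larger first step is thus not particular to the pathway. A direct limma test of the difference between both steps called 0 of the 77 genes (background 0.0055% of all genes), with 3 at an unadjusted p below 0.05.

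**Figure D3:**
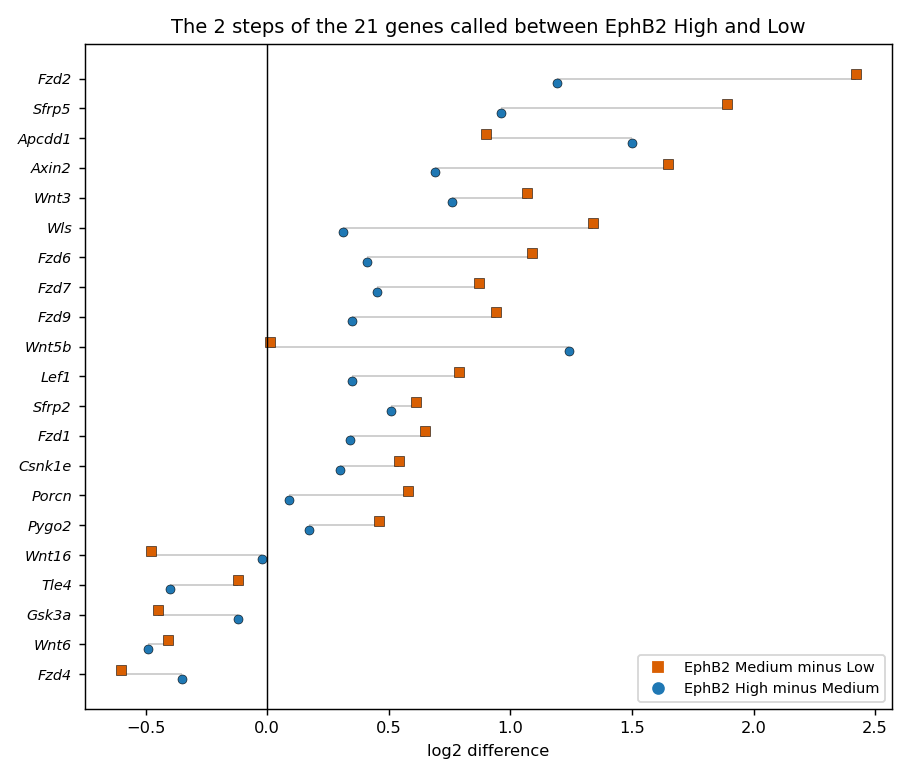
Log2 differences (x axis) of the 21 genes called between EphB2 High and Low (y axis), split into EphB2 Medium minus Low (squares) and EphB2 High minus Medium (circles). Fzd2 shows 2.42 and 1.19, whereas Wnt5b shows 0.01 and 1.24.

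The Lgr5 sort asks a similar question with a reporter of stem cells, but Lgr5 Low need not be the counterpart of EphB2 Low. Over all genes Lgr5 Low correlated at 0.9912 and 0.991 with the EphB2 Medium arrays. The values were 0.9854 and 0.984 with EphB2 High, and 0.9791 and 0.9703 with EphB2 Low. With 1 array per group the Lgr5 sort has no replicate check and no test, so genes are given by size. At 2-fold or more, 3 of the 77 genes were higher in Lgr5 High and 0 lower, against a background of 7.41% of all genes (2.34% higher, 5.07% lower). They were Apcdd1 (1.65), Fzd2 (1.5) and Sfrp5 (1.27), the 3 genes with the largest rise in the EphB2 sort. Of the other genes called in that sort, Wnt5b (0.98), Axin2 (0.86) and Fzd7 (0.86) came next. Of the 16 genes that rose in the EphB2 sort 12 were higher in Lgr5 High than in Lgr5 Low, and the 5 genes that fell were all lower. The exceptions were Fzd9 (-0.51), Wnt3 (-0.40), Pygo2 (-0.02) and Sfrp2 (-0.00). No share over all genes is given for these counts of shared direction. Quantile normalization of the 8 arrays, or the mean over probe sets, gave 5 genes at 2-fold in place of 3.

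**Figure D4:**
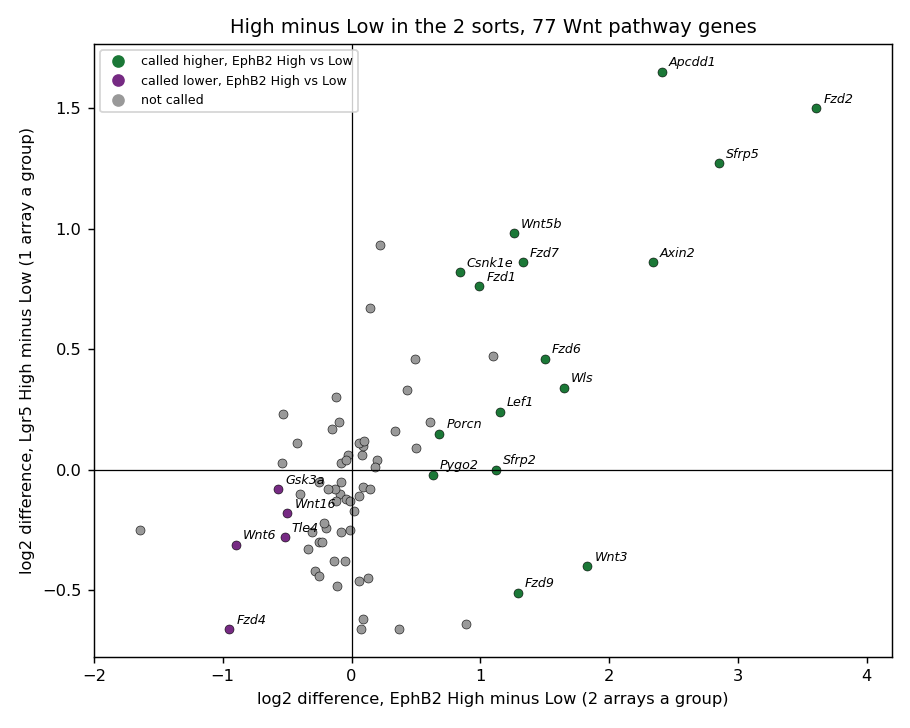
Lgr5 High minus Low (y axis, log2, 1 array each) against EphB2 High minus Low (x axis, log2) for the 77 genes, with genes called in the EphB2 sort in green (higher) or purple (lower). Fzd2 lies at 3.61 and 1.5, while Wnt3 (1.83) and Fzd9 (1.29) lie to the right and below 0 on the y axis.

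Several genes had more than 1 probe set. For 14 of the 21 genes called between EphB2 High and Low, other single-gene probe sets existed. All had the same sign as the brightest, and in 10 genes another was called too, but some were level: the dimmest probe set was at 0.05 for Fzd7, 0.07 for Lef1, 0.15 for Fzd1, 0.03 for Fzd6 and 0.15 for Wls. The mean over probe sets moved 6 of the called genes by over 1.5 times, Fzd1, Fzd2, Fzd6, Fzd7, Lef1 and Tle4. Of the genes that were not called, 6 had a dimmer probe set that was: Axin1, Gsk3b, Tcf7l2, Bcl9, Csnk1g3 (-0.74) and Wnt9a (-0.58). Of the 21 genes, 13 kept their call under all alternatives that were run.

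Other genes of the pathway were taken from a list of 56, none of them a member above. Between EphB2 Low and High 16 of these rose and 4 fell, the other 36 not passing, and the median was 0.11 (background as above). Lgr5, the R-spondin receptor and sort marker, rose by 4.25 and stood at 10.15 in Lgr5 High against 5.75 in Lgr5 Low. Prickle1, of the planar polarity branch, rose by 2.80 (1.35 with the mean over probe sets), and Tmem131l by 2.71 (1.4 with that mean). Celsr2, a planar polarity cadherin, rose by 2.23 (limma adjusted p = 0.0131), a call that ended when either EphB2 High array was left out (0.0549 and 0.0688). The Celsr2 value was 1.46 without Low replicate 2 and 1.27 with the mean over probe sets. Its relative Celsr3 fell by 2.44 on the log2 scale. Wif1, a secreted Wnt inhibitor, fell by 1.08 at levels of 2.36 to 3.79 on the EphB2 arrays (0.0606 without EphB2 High replicate 2). Tnik, a kinase of TCF factors, fell by 0.72 (-1.22 with the mean over probe sets), and the glypican Gpc4 by 0.66 (0.0986 with High replicate 2 left out, 0.0753 with Low replicate 2 left out).

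Wnt target genes were mostly higher: 17 of the 19 measured rose, 1 fell and 1, Ets2, was not called, around a median of 1.56. Tnfrsf19 rose by 4.74 (3.61 without EphB2 Low replicate 2, 2.09 with the mean over probe sets), Ascl2, a stem cell transcription factor, by 3.98, and the adhesion receptor Cd44 by 2.95 (limma adjusted p = 0.00262). Id2 fell by 0.74 (adjusted p = 0.0256), a call that ended when High replicate 1 (0.117), Low replicate 1 (0.104) or Low replicate 2 (0.0552) was left out, and with the mean over probe sets (0.353). Because the list rests on what is known of crypt cells and overlaps the stem cell markers, its direction is not independent evidence.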

How the data were processed

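Expression was measured on Affymetrix arrays in 8 samples of sorted mouse intestinal crypt cells. Per the labels' protocols, a Trizol extract of each sample underwent isothermal (SPIA) amplification. The deposited values are on the log2 scale, made by the authors with RMA per the submitters' processing notes, which give no version. Joint normalization of the 8 arrays was not stated in the sources used here. RMA equalizes the distributions of arrays and hides any change in the total RNA of a cell. Array medians over the 45101 probe sets ran from 6.12 to 6.20.

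Probe sets were named through GEO's platform annotation: 34945 named 1 gene, 932 several and 9160 none, and 64 were controls. Of those with 1 gene, 34741 had a gene ID in RefSeq. For each of 18193 genes the single-gene probe set with the highest mean over the EphB2 arrays was taken. Ephb2, Tcf7 and Kremen2 were not analysed here.

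Groups were compared with limma (version 3.58.1, R 4.3.3; lmFit and eBayes, 2-sided tests) fitted to the 6 EphB2 arrays with no term but the group, 3 residual degrees of freedom and Benjamini-Hochberg adjustment over all 18193 genes. A call needed an adjusted p below 0.05. The number of arrays limits the precision. Data were simulated for EphB2 High against Low over 18193 genes. Of genes changed by 1 on the log2 scale 39% were called, and of those changed by 2, 77%. Far fewer genes were changed in that simulation than the 37.3% called in the data, which makes the adjustment stricter. These shares therefore do not give the recovery in the data. The Lgr5 groups have 1 array each and were given by size, at 2-fold. Levels of different probe sets were set side by side to choose 1 per gene, to rank genes by percentile, and in the marker sums and medians.

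Replicate numbers mark a shared hybridization in the labels, so same-numbered EphB2 arrays form pairs. Their deviations from the group means correlated across genes at 0.452 (High and Medium), 0.131 (High and Low) and 0.212 (Medium and Low). One alternative blocked on this number. Others were quantile normalization, a filter at the 40th percentile, the mean over probe sets, only the compared groups, a variance prior with a trend, and each array left out. The text could name any member, and from each further list up to 4 called genes of largest difference in each direction. Members, lists and tests were chosen with earlier results of these data known. Promoter windows came from a RefSeq table on GRCm38.p6, matched by Entrez gene ID.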

Additional observations from a re-analysis of the deposited data

Results flagged for a closer look

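Of the 21 genes called between EphB2 High and Low, 4 had Lgr5 arrays that lay the other way round, by little in Pygo2 and Sfrp2. Wnt3 was higher in EphB2 High than in EphB2 Low by 1.83 and lower in Lgr5 High than in Lgr5 Low (-0.40), so that the differences of the sorts lay 2.23 apart on the log2 scale. For Fzd9 the values were 1.29 and -0.51, 1.79 apart. For Sfrp2 they were 1.12 and -0.00, 1.13 apart, and for Pygo2 0.63 and -0.02, 0.65 apart. A limma contrast of the sorts over all 8 arrays, added after seeing the data, gave adjusted p-values of 0.0775, 0.0827, 0.091 and 0.138 for Wnt3, Fzd9, Sfrp2 and Pygo2. It called 0 of the 77 genes and 33 of all genes (0.181%). Genes called with the replicate block but not without it included Dkk3 (0.37 and -0.66, 1.03 apart, adjusted p = 0.0894) and Tle6 (0.89 and -0.64, 1.54 apart, adjusted p = 0.188). The lone Lgr5 arrays were assumed there to vary like the EphB2 arrays, and their separate hybridization cannot be told apart from the sort. Lgr5 Low also correlated more closely with EphB2 Medium than with EphB2 Low over all genes. Whether the Low groups of the sorts hold the same cells was not tested, so their High minus Low differences may not span the same groups.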

How the results depend on the processing

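Between EphB2 High and Low, 13 of the 21 calls were kept under all alternatives run and 8 were lost when 1 array was left out (15 to 24 called; 13 to 17 higher, 2 to 7 lower). With the replicate number as a block 28 were called, the 21 among them, with Axin1, Csnk1d, Dkk3, Dkk4, Dvl2, Tcf7l2 and Tle6 added. The lower genes numbered 3 with the filter at the 40th percentile and 8 with the mean over probe sets, in place of 5.

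Between EphB2 Medium and Low, 2 to 12 of the 77 were called with 1 array left out (2 to 10 higher, 0 to 3 lower), against 13 in all. With the block 13 were called: Porcn was lost (adjusted p = 0.053) and Apcdd1 added. The lower genes numbered 2 with the filter, 7 with the mean over probe sets and 0 with only the compared groups, in place of 1. Between EphB2 High and Medium the count was 0, and 0 with any array left out (total, higher and lower). It was 1, higher, with the block, 1, higher, with the mean over probe sets, and 2, 1 higher and 1 lower, with a variance prior with a trend. The step difference gave 0 genes in every such fit.

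Gsk3b reversed with the mean over probe sets (-0.50, adjusted p = 0.0354), its probe sets differing in sign. In the Lgr5 sort, 5 genes were at 2-fold or more with quantile normalization and 5 with the mean over probe sets, all higher. At 1.5-fold 15 were past the limit, 10 higher and 5 lower. Apart from what is named here and in the report, the cause of these changes was not tested. The number of arrays limits the precision.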
